A study of Mus musculus with 5 samples.

Results

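Basophils, the rarest granulocytes of the bone marrow, were picked out of whole marrow by the mRNAs of their granule proteases, and 123 such cells were found among 21520 cells of 3 whole marrow libraries. A cell was taken when it held at least 5 unique molecular identifiers (UMIs, each standing for 1 captured transcript) of Mcpt8 and Prss34 together and when the azurophil granule genes Mpo, Elane, Prtn3 and Ctsg, which mark neutrophil and monocyte precursors, made up less than 1% of its UMIs. The members were chosen by these measured UMI counts, among the 25975 cells of the whole series that had 200 genes or more and a mitochondrial share under 20%. Because Mcpt8 and Prss34 chose the cells, their presence is not a result, and every gene that sets these cells apart from other marrow cells is given as a description without a test.

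The study profiled the marrow of BALB/c mice, 4 to 8 weeks old, by droplet single-cell RNA sequencing after chemotherapy. Naive mice (naive BM) were the untreated group, and treated mice received cyclophosphamide (CTX), a DNA-alkylating drug, at 150 mg/kg, with marrow taken on day 2 (D2 CTX BM) or day 7 (D7 CTX BM). All were labelled as CD45+ bone marrow mononuclear cells, and equal numbers of cells from 3 mice were pooled into 1 library per condition after red cell lysis and removal of dead cells. There is thus 1 library per condition and no biological replicate. No test between conditions was possible, and every interval below is a 95% interval that covers counting error only, not the spread between mice or libraries. The libraries held 47086837 UMIs in naive BM, 34764874 in D2 CTX BM and 68459527 in D7 CTX BM. Median depth per cell passing these limits was 3954 UMIs for naive BM, 3034 for D2 CTX BM and 7190 for D7 CTX BM, and for the basophils alone it was 4569, 5190 and 6952 UMIs. The pairs of whole marrow libraries shared between 6 and 15 cell barcodes, and none of the 123 basophils carried a shared one. In 2 further libraries of sorted CD11b+Ly6Chi monocytes, 0 of 2564 treated and 0 of 1891 naive cells met the rule, which allows shares of up to 0.117% and 0.159% (3 cells of the total).

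Basophils mature in the marrow from progenitors that carry the transcription factor Gata2 and the interleukin-3 receptor, and they leave it as short-lived cells of the blood. They bind IgE through a high-affinity receptor made of Fcer1a, Ms4a2 and Fcer1g, and when it is cross-linked they release histamine, lipid mediators and cytokines such as Il4. In the mouse, Mcpt8 and Prss34 are serine proteases of basophil granules, and mature tissue mast cells carry Kit and other proteases in their place.

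The number of basophils recovered depended on which mRNAs defined them. By Mcpt8 and Prss34, 70 of 7104 naive cells were basophils (0.985%, exact binomial interval 0.769 to 1.24%). In D2 CTX BM 33 of 6126 cells met the rule (0.539%, 0.371 to 0.756%), and in D7 CTX BM 20 of 8290 cells did (0.241%, 0.147 to 0.372%). On the log2 scale the share was lower than in naive BM by 0.87 on day 2 (ratio -0.87, interval -1.51 to -0.25) and by more on day 7 (ratio -2.03, -2.83 to -1.30). A second definition left Mcpt8 and Prss34 aside and asked for at least 3 UMIs of Ms4a2, Fcer1a and Cd200r3, under the same limit on azurophil granule genes. It was chosen after the values had been seen. It found 79 naive cells (1.11%, 0.881 to 1.38%), 68 cells on day 2 (1.11%, 0.863 to 1.41%) and 27 on day 7 (0.326%, 0.215 to 0.474%). The day 2 share then stood level with the naive share (log2 ratio -0.00, -0.49 to 0.48), whereas the day 7 share remained below it (-1.77, -2.46 to -1.13). A stricter form of it also asked for Gata2 and left out cells over 30000 UMIs or with signs of neutrophil or B cell RNA, and gave 67, 51 and 24 cells with log2 ratios of -0.18 on day 2 (-0.73 to 0.37) and -1.70 on day 7 (-2.44 to -1.01). The makeup and depth of the whole marrow differed between libraries as well, and their part in these shares was not tested. Without lymphoid cells in the denominator, the shares by the protease rule were 1.53% in naive BM, 0.777% in D2 CTX BM and 0.323% in D7 CTX BM, with log2 ratios of -0.97 on day 2 and -2.24 on day 7 over naive BM.

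**Figure D1:**
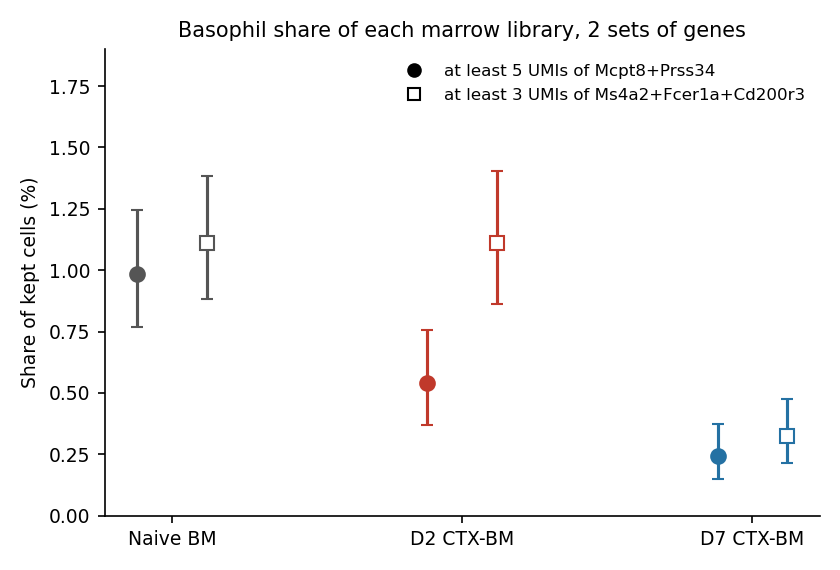
Share of whole marrow cells called basophils (percent of kept cells) in the naive, D2 CTX and D7 CTX libraries, by Mcpt8 and Prss34 and by Ms4a2, Fcer1a and Cd200r3; bars on the points are exact binomial 95% intervals. The day 2 value is 0.539% by the first definition and 1.11% by the second, and the day 7 values of 0.241% and 0.326% lie below the naive values under both.

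The cells that separated the definitions were day 2 cells with basophil surface mRNAs and little or no protease mRNA. Of the 68 cells found on day 2 by surface mRNAs, 31 met the protease rule and 37 did not, whereas only 10 of the 79 naive cells and 7 of the 27 day 7 cells did not. Of those 37 cells, which had a median of 2492 UMIs, 35 held Gata2, 29 held Hdc, the enzyme that makes histamine, and 26 held Cpa3, the carboxypeptidase of basophil and mast cell granules, which 9 of the 10 naive cells outside the protease rule held. In the 6056 D2 CTX BM cells that met neither definition, which had a median of 3032 UMIs, Gata2 was found in 2.01%, Cpa3 in 0.396% and Hdc in 45.5%, and Hdc was found in 82.4% of day 2 neutrophils, so it does not mark the 37 cells as basophils. Kit was found in 9 of the 37, and 14 held no UMI of Mcpt8 or Prss34 at all.

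Prss34 differed widely among the cells found by surface mRNAs, a group chosen without it. A naive cell held a median of 68 UMIs, a day 2 cell 0 and a day 7 cell 74. It was present in 58 of 79 naive, 21 of 68 day 2 and 20 of 27 day 7 cells, and the highest single cells held 932, 812 and 466 UMIs, so the libraries overlapped widely at the top. Summed over the cells, Prss34 stood at 28972 CPM (UMIs of the gene scaled to the same total in every library) in naive BM, 7403 CPM in D2 CTX BM and 16340 CPM in D7 CTX BM. Mcpt8 was also lowest on day 2, with medians of 37, 3 and 24 UMIs per cell and summed levels of 9985, 3824 and 6072 CPM. Over both proteases the median was 136 UMIs per naive cell, 3.5 on day 2 and 126 on day 7. Thinning each cell to 1000 UMIs left Prss34 in 70.9% of naive, 26.9% of day 2 and 70.4% of day 7 cells, and Mcpt8 in 88.6%, 56.7% and 85.2%. Cpa3 was present at that depth in 72.2%, 53.7% and 70.4% of the same cells, so it too was lowest on day 2, with intervals that overlapped (60.9 to 81.7% in naive BM and 41.1 to 66.0% on day 2). Gata2 was present in 57.0%, 61.2% and 63.0%, and Ccl3 in 77.2%, 73.1% and 55.6%. The low day 2 protease levels were seen as well in cells with fewer than 2 UMIs of cell cycle genes after that thinning, where Prss34 stood at 17401, 3090 and 10934 CPM over 53, 48 and 23 cells. Under the stricter form of the definition Prss34 was at 0 in 25.4% of naive, 68.6% of day 2 and 25% of day 7 cells. That form left out, among others, 4 day 2 cells over 30000 UMIs that weighed on the day 2 sums. Prss34 then stood at 33417, 10617.5 and 17536.7 CPM. Mcpt8 stood at 10991.5, 6032.3 and 6688.1 CPM, so its day 2 level was then close to that of day 7.

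**Figure D2:**
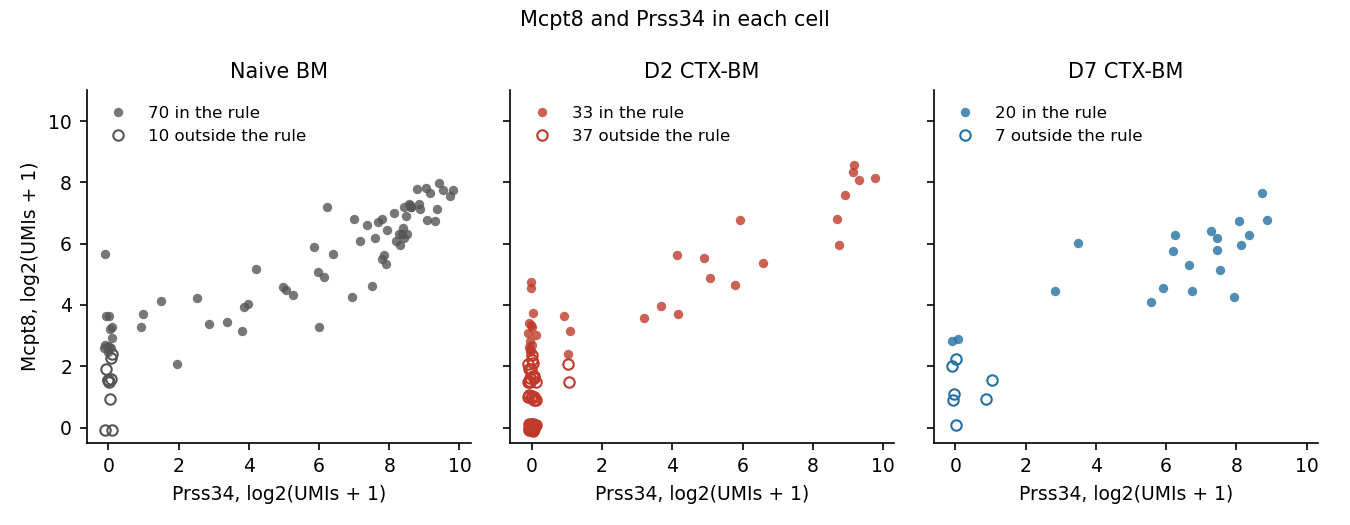
Prss34 (x axis) and Mcpt8 (y axis), both as log2(UMIs + 1), in each cell of the naive, D2 CTX and D7 CTX libraries that met either definition. Other marrow cells are not drawn. Filled points met the protease rule, and open points were found by surface mRNAs alone, with a small scatter added to separate cells. Most of the 37 open day 2 points lie at or near 0 on both axes, against 10 open points in naive BM and 7 in D7 CTX BM.

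The stretches upstream of Prss34, Cpa3 and Ms4a2 are shown as those of a granule protease that chose the cells and was missing from most day 2 cells found by surface mRNAs, of a granule carboxypeptidase, and of a receptor chain that found them. Each is the 250 bases before the start of the RefSeq gene (build GRCm38.p6), read 5′ to 3′ on the strand of the gene, with capitals marking each match to the letters AGATAA, to the letters AGATAG, to the letters TGATAA or to the letters TGATAG on either strand, which GATA factors bind. Prss34 lies at chr17:25298144-25298393 (+ strand), Cpa3 at chr3:20242182-20242431 (- strand) and Ms4a2 at chr19:11623720-11623969 (- strand).
Prss34: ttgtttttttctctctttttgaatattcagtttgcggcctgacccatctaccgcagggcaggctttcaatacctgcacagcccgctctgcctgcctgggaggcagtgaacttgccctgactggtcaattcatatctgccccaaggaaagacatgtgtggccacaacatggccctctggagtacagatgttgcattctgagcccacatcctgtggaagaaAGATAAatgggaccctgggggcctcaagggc
Cpa3: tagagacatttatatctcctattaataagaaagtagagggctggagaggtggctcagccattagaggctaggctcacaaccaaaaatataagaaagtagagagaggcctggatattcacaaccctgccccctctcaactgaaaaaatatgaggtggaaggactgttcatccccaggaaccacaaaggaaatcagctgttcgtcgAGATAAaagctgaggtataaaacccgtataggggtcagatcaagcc
Ms4a2: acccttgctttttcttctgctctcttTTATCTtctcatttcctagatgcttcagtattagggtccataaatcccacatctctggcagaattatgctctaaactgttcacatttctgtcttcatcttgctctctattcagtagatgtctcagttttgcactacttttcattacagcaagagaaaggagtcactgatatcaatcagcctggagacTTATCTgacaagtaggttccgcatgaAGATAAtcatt
Prss34 and Cpa3 held 1 match each, the first letters of which lie 31 and 46 bases before the start, and Ms4a2 held 3, the nearest 11 bases before it. In the same window Fcer1a held 1 match and Mcpt8 held 0, and the Mcpt8 stretch is not printed because it overlaps the gene as GENCODE annotates it. Among 32851 RefSeq promoters, 8718 (26.5%) held at least 1 such match in the same window. A match is a description of letters and does not show that a factor binds there.

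**Figure D3:**
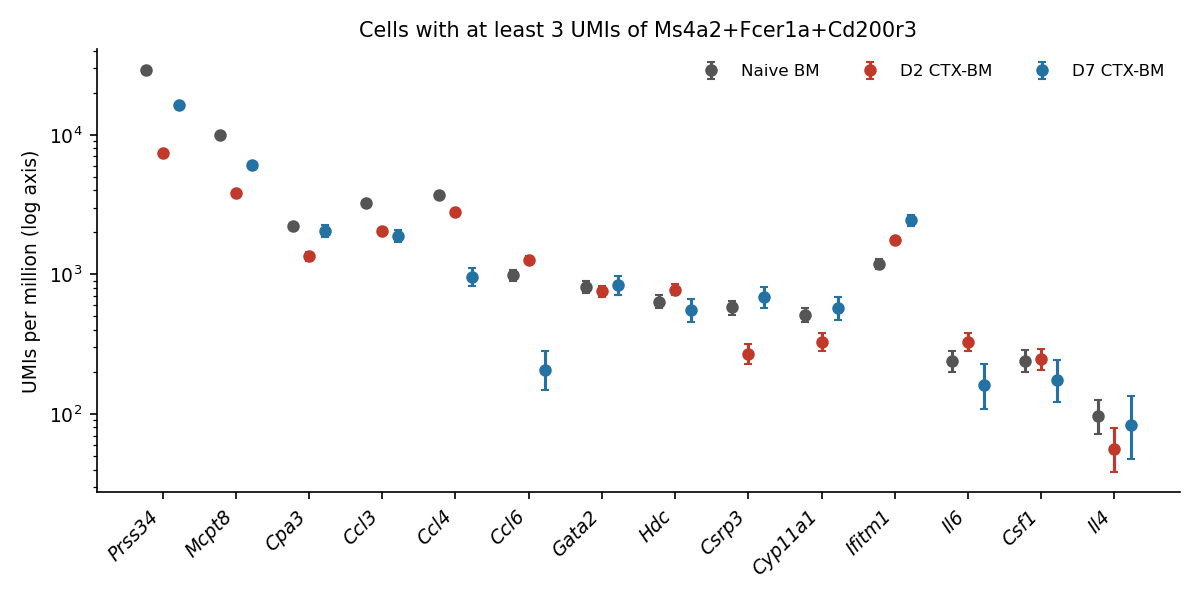
Summed level (CPM, log axis) of basophil genes in the cells found by Ms4a2, Fcer1a and Cd200r3, by library; bars are exact Poisson 95% intervals. Prss34 stands at 28972, 7403 and 16340 CPM and Mcpt8 at 9985, 3824 and 6072 CPM in naive, D2 CTX and D7 CTX BM.

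Most of the 123 cells of the protease rule carried basophil mRNAs beyond the genes that chose them. The exceptions include 4 cells with no UMI of Ms4a2 or Fcer1a, among them the pair of large day 2 cells described below. Of the 20 genes highest over other marrow cells, Prss34 (log2 ratio 10.97) and Mcpt8 (9.42) were followed by Cpa3 (7.37), Fcer1a (6.60), Ms4a2 (6.52), the chemokines Ccl4 (6.14) and Ccl3 (5.76), the receptor gene Cd200r3 (5.67), the steroid-synthesis enzyme Cyp11a1 (5.38), Gata2 (5.36) and the muscle LIM protein gene Csrp3 (5.36). Prg2, the eosinophil major basic protein, was also among the 20 (4.85), but 520 of its UMIs lay in 1 day 7 cell, which held 37 UMIs of Prg3 as well. Ms4a2 was found in 68 of 70 naive, 30 of 33 day 2 and 20 of 20 day 7 cells, and Fcer1a in 68, 28 and 20. B lineage cells were taken at 3 or more UMIs of Cd79a and Cd79b and fewer than 5 of Mcpt8 and Prss34. Cells richer in the proteases were thus left out beforehand, and the low protease counts follow in part from that cut. Among naive B lineage cells 0.798% held a UMI of Mcpt8 and 1.17% one of Prss34, with no cell above 1 UMI, at a median of 2950 UMIs per cell. In the 1829 B lineage cells of D2 CTX BM the shares were 0.328% and 0.219%, at a median of 2618 UMIs. Ms4a2 and Fcer1a were each found in 0.164% of those day 2 cells, but the highest single cells held 13 UMIs of Ms4a2, 7 of Fcer1a and 3 of Mcpt8. In the 240 B lineage cells of D7 CTX BM neither protease was found.

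The cells varied widely in protease content. Mcpt8 was present in all 123, and together with Prss34 it ranged from 5 to 1134 UMIs per cell in naive BM, from 5 to 1115 in D2 CTX BM and from 6 to 598 in D7 CTX BM. Prss34 was at 0 in 12 of 70 naive, 14 of 33 day 2 and 2 of 20 day 7 cells. Just inside the limit, 7 naive, 7 day 2 and 2 day 7 cells held 5 or 6 UMIs, and just outside it 3 naive, 12 day 2 and 3 day 7 cells held 3 or 4. The limit on azurophil granule genes left out 1 naive and 1 day 2 cell with 5 or more.

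Markers of mature mast cells were nearly absent. Mcpt4, Mcpt1, Mcpt2, Tpsb2 and Tpsab1, the mast cell proteases, were at 0 in the cells of all 3 libraries, as were the receptor genes Mrgprb1 and Mrgprb2 and the serotonin enzyme Tph1. Cma1, mast cell chymase, had 2 UMIs in naive BM, 3 in D2 CTX BM and 0 in D7 CTX BM. The 21 genes of the mast cell list summed to 5455, 4417 and 5730 CPM, of which Cpa3, shared with basophils, was the most abundant at 2281, 1695 and 2356 CPM. Kit, the stem cell factor receptor, which mast cells and their precursors carry, was found in 7 of 70, 5 of 33 and 1 of 20 cells, and after thinning to 1000 UMIs in 1, 2 and 0 of them. Precursors need not carry the genes of mature mast cells, so these values do not tell whether mast cell precursors were among the cells, and the cells are called basophils here by their leading genes. A day 2 cell held several mast cell mRNAs together, with 78 UMIs of Cpa3, 29 of Gzmb, 6 of Kit and 3 of Cma1, beside 27 of Mcpt8 and 0 of Prss34.

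Genes of other cell types were detected in the basophils at levels that differed between libraries. The 12 neutrophil granule and S100 genes summed to 36930 CPM in naive basophils, 10987 CPM on day 2 and 18897 CPM on day 7, with S100a9 or S100a8 the most abundant. S100a8 and S100a9 reached 2% of UMIs in 6, 4 and 1 cells. Camp, a neutrophil granule peptide, had 1757 UMIs in naive basophils, of which 1047 lay in a single cell, and Hbb-bs, a globin, had 589 UMIs, of which 541 lay in a single cell. B lineage genes summed to 666, 799 and 86.0 CPM, and at least 3 UMIs of Cd79a and Cd79b were found in 4, 5 and 1 cells. In the B lineage, S100a8 stood at 10735, 19215 and 17567 CPM, against 12944, 4467 and 6339 CPM in basophils. The basophil sums came mostly from the few cells rich in it, which held 6050 of 6277 UMIs in naive BM, 1430 of 1784 on day 2 and 825 of 958 on day 7, and in the remaining 64, 29 and 19 basophils S100a8 stood at 541, 1033 and 932 CPM. Without the cells rich in S100a8 and S100a9, 4 of 5 p53 targets, 5 of 15 immediate early genes and 1 of 23 cell cycle genes were higher on day 2, and 6 of 14 immediate early genes were higher and 9 of 14 cell cycle genes lower on day 7. With all basophils kept, 5.77% of all genes were higher on day 2, so the 1 of 23 is near that share and is not read as a difference. On day 7, 1.62% of all genes were higher and 4.06% lower with all basophils kept.

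A pair of day 2 cells stood apart and weighed on the day 2 sums. With 69905 and 55747 UMIs they held 31.5% of all UMIs of the 33 day 2 cells, and neither had a UMI of Ms4a2, Fcer1a or Prss34, while they held 14 and 4 of Kit, 32 and 20 of Cd34, a marker of early progenitors, and 162 and 171 of Mpo. They met the protease rule and are kept under the name basophils in the day 2 values, although they lacked these marker mRNAs. Where a gene or list described below was called on day 2 with them and not without them, or the reverse, this is said.

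Between D2 CTX and naive basophils, 143 of 2480 genes with at least 50 UMIs were higher by at least 1 log2 unit (5.77%) and 58 were lower (2.34%), with a median of 0.07 over all. Without the pair of large cells 67 of 2116 were higher and 33 lower. Of the p53 targets, which are switched on after DNA damage, 6 of 17 had enough UMIs to be compared on day 2 and 5 of these were higher, with a median log2 ratio of 2.14. Without the pair of large cells it was 4 of 5, as Trp53inp1 then had too few UMIs to be compared, and with no limit on UMIs 12 of 17 were higher and 0 lower, with a median of 1.25. Cdkn1a, the p21 inhibitor of the cell cycle, stood at 59.8 CPM in naive BM, 498 CPM in D2 CTX BM and 72.8 CPM in D7 CTX BM, and 21 of 70, 19 of 33 and 5 of 20 cells held it. Its log2 ratio on day 2 was 2.86 (interval 2.49 to 3.67) with the pair of large cells and 3.32 without them. Ccng1, cyclin G1, stood at 39.2, 353 and 13.2 CPM (day 2 ratio 2.88, interval 2.48 to 3.95, and 2.92 without the pair). Trp53inp1 stood at 14.4, 118 and 19.8 CPM, Bax, which promotes cell death, at 120, 471 and 152 CPM, and Mdm2, which degrades p53, at 66.0, 170 and 33.1 CPM. The summed p53 list was at 683, 2401 and 1562 CPM, and on day 7 Btg2 alone made up 1132 CPM of it. In the B lineage of these libraries Cdkn1a stood at 17.6, 94.5 and 29.7 CPM and Ccng1 at 37.0, 183 and 26.7 CPM, so higher day 2 levels were not limited to basophils.

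Several basophil genes had lower summed levels on day 2, and for some of them this came with the pair of large cells. Prss34 reached 31038 CPM in naive basophils, 10606 CPM on day 2 (log2 ratio -1.55, and without the pair -1.0) and 20909 CPM on day 7 (-0.57). Mcpt8 stood at 10678, 5391 and 7695 CPM (day 2 ratio -0.98, without the pair -0.45). As both chose the cells, these ratios are a description. Of the 12 genes of the IgE receptor and its signalling, 0 were higher and 2 lower on day 2, namely Fcer1g, the shared signalling chain (-1.02), and the adaptor gene Lat2 (-1.04). Without the pair these stood at -0.50 and -0.53, and none of the 10 genes then compared was apart in either direction. Fcer1a was at 1122, 871 and 1251 CPM and Ms4a2 at 1200, 849 and 1290 CPM, and their day 2 ratios turned from -0.36 and -0.49 to 0.18 and 0.04 without the pair. Cd200r3 was lower by the threshold (-1.12), as was Csrp3 (-1.13), but without the pair they stood at -0.59 and -0.60. Cpa3 was at -0.43 with the pair and 0.11 without it.

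The receptors and mediators differed gene by gene. Among 8 cytokine receptor genes 1 was lower on day 2, Il18r1 for interleukin-18 (-1.06), with 56 UMIs in naive basophils, 20 on day 2 and 1 on day 7, and without the pair of large cells it stood at -0.60 and was not called. Hdc stood at 623, 656 and 562 CPM and Il4 at 94.9, 50.1 and 79.4 CPM. Among 11 cytokines and chemokines, Cxcl2, which draws neutrophils, was higher on day 2 (2.59, 22 against 129 UMIs), though it was found in only 9 of 70 and 10 of 33 cells, and the pair of large cells held none of it (3.12 without them). Without the pair 3 of the 11 were higher, as Hgf, the hepatocyte growth factor, and Osm, an interleukin-6 family cytokine, then stood at 1.40 and 1.06. Among 18 surface genes Itga4 (1.37) and Cd34 (1.83) were higher, and Cd200r3 and the tetraspanin gene Cd9 (-1.10) were lower. Of the 69 day 2 UMIs of Cd34, 52 lay in the pair, and without it Cd34 had too few UMIs to be compared (0.49), whereas Itga4 stood at 1.02. With Ly6e (1.10) and Cxcr2 (1.07) this made 3 higher and 0 lower of the 17 surface genes then compared. Mef2c, the gene with the highest ratio (3.47), stood at 1.20 without the pair and then had too few UMIs to be compared. Among the 12 transcription factor genes Myb, Myc and Egr1 were higher (1.31, 1.19 and 1.26), but without the pair only Egr1 was (1.80), as Myb stood at 0.53 and Myc, with 30 of its 39 day 2 UMIs in the pair, had too few UMIs to be compared. Gata2 stood at 767, 631 and 854 CPM.

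Between D7 CTX and naive basophils, 28 of 1726 genes were higher (1.62%) and 70 lower (4.06%). Of the 25 cell cycle genes 15 had enough UMIs, and 11 of these were lower, with a median log2 ratio of -1.72 (with no limit on UMIs, 15 of 25 and -1.13), and their summed level was 3586 CPM in naive basophils, 4269 CPM on day 2 and 1383 CPM on day 7. Ube2c, a ubiquitin enzyme of mitosis, stood at 464 and 46.3 CPM (-3.07, interval -4.66 to -2.26) and Ccnb2, cyclin B2, at 142 and 13.2 CPM (-2.71). On day 2, 1 of 23 cell cycle genes was higher, Cenpf (1.22), and without the pair of large cells it was not (-0.34), while Ube2c was then lower (-1.05), as 1 of 21. With the level of B lineage cells, some of which cycle themselves, subtracted, 21 of 23 cell cycle genes were higher on day 2 and 2 of 15 lower on day 7, so these calls depend on that choice. The chemokines Ccl6 and Ccl4 were lower on day 7: Ccl6 was at 909, 994 and 152 CPM (-2.50, interval -3.25 to -1.98) and Ccl4 at 3411, 2474 and 973 CPM (-1.80, -2.06 to -1.57), while Ccl3 was at 3132, 1813 and 1879 CPM (-0.73). Of 10 cytokine and chemokine genes compared, 2 were lower. Prss34 and Mcpt8 differed by less than the threshold on day 7 (-0.57 and -0.47). Of the 8 genes compared from the list of the IgE receptor and its signalling, only Ms4a3 was higher (1.08), which is not among the receptor chains named above.

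Immediate early genes, which are switched on quickly by many stimuli, were higher in part on both days. Of 18 genes, 15 could be compared on day 2, of which 5 were higher, and 14 on day 7, of which 6 were higher. Fos stood at 225, 819 and 1171 CPM and Fosb at 163, 603 and 1059 CPM, with day 7 ratios of 2.33 (interval 2.03 to 2.74) and 2.63 (2.30 to 3.11). Jun (1.13), Dusp1 (1.59), Klf6 (1.60) and Btg2 (1.96) were also higher on day 7. In B lineage cells Fos stood at 110, 165 and 247 CPM. Without the pair of large cells 6 of 15 were higher on day 2, and Fos and Fosb then stood at 2.11 and 2.27 over naive BM, against 1.82 and 1.83 with it. Apoe, the lipid carrier, was higher on day 7 (1.75, interval 1.44 to 2.13, 287 against 986 CPM), as were Slc18a2, which loads histamine into granules (1.26, 82.5 against 212 CPM), and Ifitm1, an interferon-induced gene (1.08, 1184 against 2508 CPM). Prg2 had the highest ratio (8.16), from the single cell named above.

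**Figure D4:**
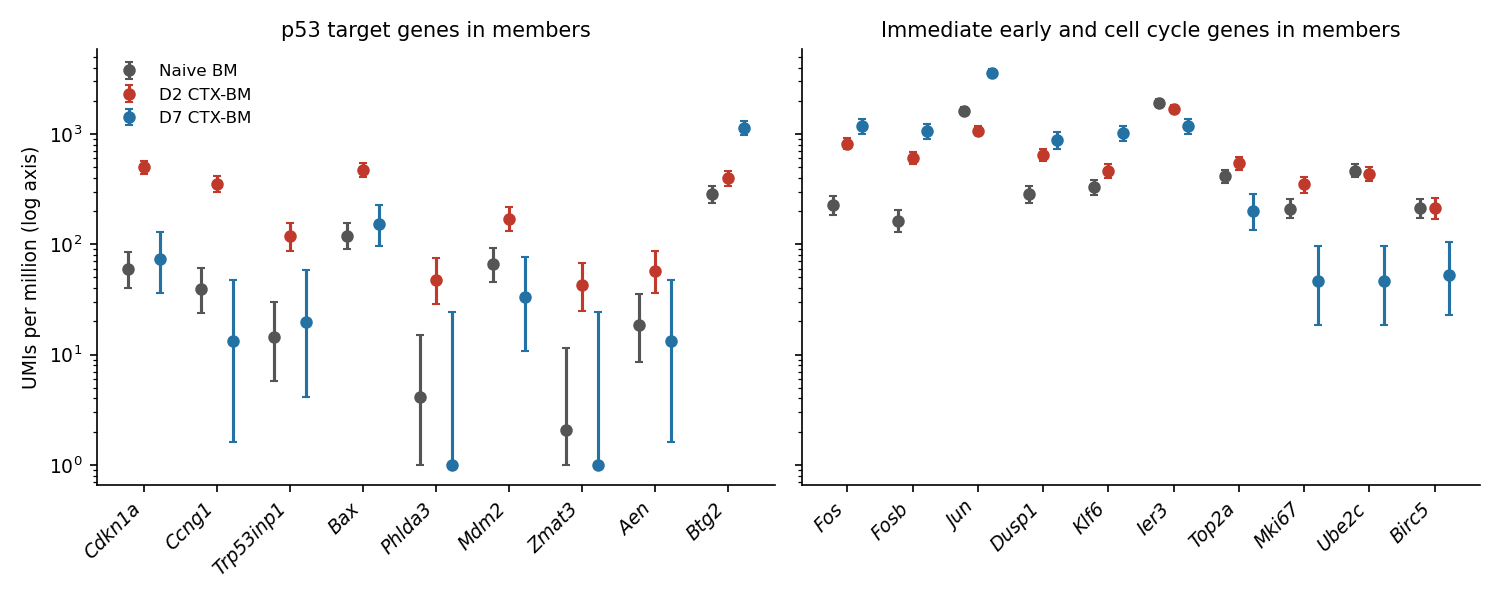
Summed level (CPM, log axis) of p53 targets, immediate early genes and cell cycle genes in basophils of the protease rule, by library, with exact Poisson 95% intervals; levels of 0 are drawn at 1. Cdkn1a reaches 498 CPM on day 2, where the values include the pair of cells over 30000 UMIs, and Ube2c is at 46.3 CPM on day 7.

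Between D7 and D2 CTX basophils, 42 of 1621 genes were higher (2.59%) and 146 lower (9.01%). Of 15 cell cycle genes 10 were lower on day 7 than on day 2 and of 6 p53 targets 5 were lower and 1, Btg2, higher (1.49), and Apoe was higher (2.33). Of 15 immediate early genes 4 were higher and 0 lower. The basophils held 399391 UMIs on day 2 and 151132 on day 7, so a gene can pass the limit on day 2 UMIs alone. With no limit on UMIs, 15 of 25 cell cycle genes were lower and 0 higher (median log2 ratio -1.68). Of 17 p53 targets 12 were then lower and 1 higher (-1.54), and of 18 immediate early genes 4 were higher and 1 lower. The p53 counts rest on the same day 2 values as those over naive BM. Without the pair of large cells 19 genes were higher and 69 lower, Apoe stood at 1.83, and 6 of 7 cell cycle genes and 4 of 5 p53 targets were lower with 0 higher. The number of all genes compared without the pair is not given here, so these list counts have no share of all genes beside them. Of 14 immediate early genes 1 was then higher and 5 were lower, so this list turned.

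Some basophils held mRNAs of the cell cycle, and a cell is called cycling here when it had at least 2 UMIs of cell cycle genes after thinning to 1000 UMIs. This held for 29 of 70 naive cells (41.4%, interval 29.8 to 53.8%), 13 of 33 day 2 cells (39.4%, 22.9 to 57.9%) and 4 of 20 day 7 cells (20%, 5.73 to 43.7%), and the intervals overlapped. Without thinning the shares were 58.6%, 54.5% and 65%, so the order on day 7 turned. Among B lineage cells the thinned shares were 33.9% in naive BM, 7.00% on day 2 and 55.8% on day 7. Setting aside the pair of large cells, the 44 cycling cells were compared with the 77 others, and the cycling cells held more UMIs, with medians of 10561 and 4279 UMIs. Of 2481 genes, 183 were higher in the cycling cells (7.38%) and 192 lower (7.74%). Prss34 and Mcpt8, which chose all 121 cells and are given as a description, had log2 ratios of 1.11 and 1.0 in the cycling cells. Cpa3 was at 0.83 and Ms4a2 at 0.04. Of the 11 cytokine and chemokine genes made by the cells 7 were lower in the cycling cells and 0 higher, of 9 cytokine receptor genes 4 were lower and 0 higher, of 17 surface genes 7 and 0, and of 7 histamine and lipid mediator genes 3 and 0. Lower values included Hdc (-1.07), Cyp11a1 (-1.16), Ccl3 (-1.23), the shared cytokine receptor chain Csf2rb (-1.25), Ifitm1 (-1.36), the chemokine receptor Cxcr2 (-1.52), Ccl4 (-1.96) and Ccl6 (-2.79), whereas Cxcl2 stood at 0.46, Cxcr4 at 0.72, Il3ra at 0.06 and Alox5 at -0.10. Not all of these held within each library. Hdc was at -1.19 in naive BM and -1.47 in D2 CTX BM but at -0.07 (interval -0.85 to 0.66) in D7 CTX BM, where 4 cycling cells stood against 16. Ccl3 was at -1.69, -1.10 and -0.07, Csf2rb at -1.87, -1.15 and 0.04, and Cyp11a1 at -1.34, -1.08 and -0.45, whereas Ifitm1 was at -1.22, -1.45 and -1.31 and Ccl4 at -2.00, -2.56 and -4.40. Cxcr2 fell short of the threshold in D2 CTX BM (-0.85, interval -1.80 to -0.02), against -2.63 in naive BM and -3.93 in D7 CTX BM. The cycling cells held 5 of its UMIs in naive BM, 22 in D2 CTX BM and 0 in D7 CTX BM. Genes of other cell types differed as well: 4 of 5 B lineage and 4 of 5 erythroid genes were lower in the cycling cells, and of 11 neutrophil granule and S100 genes 4 were higher and 2 lower (Camp 1.89, Ngp 1.86). Of 15 immediate early genes 6 were lower and 0 higher. Without cells that held S100a8 and S100a9 at 2% of UMIs, 3 UMIs of Cd79a and Cd79b or 50 UMIs of Hbb-bs, 38 cycling and 63 other cells were left. Of all 1966 genes then compared, 207 were higher and 166 lower. Among them 7 of 10 cytokine and chemokine genes were lower, and of 5 neutrophil granule and S100 genes 0 were apart. Depth moved with this split, and its part was not tested.

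**Figure D5:**
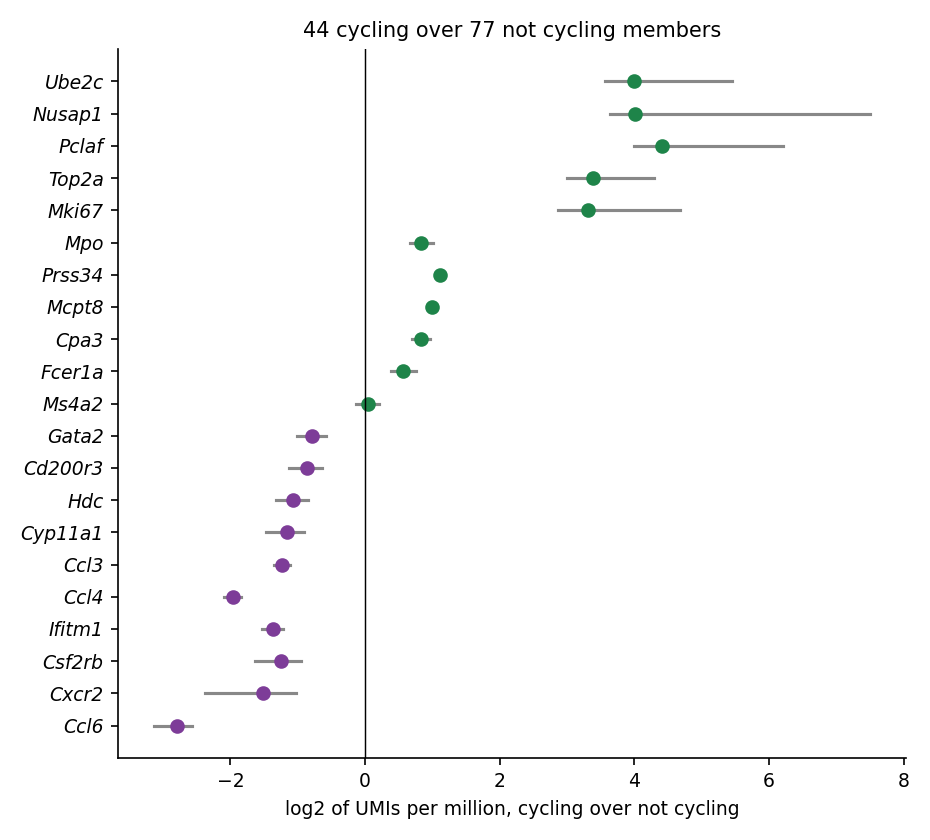
Log2 ratio of 44 cycling over 77 other basophils, pooled over the libraries and without the pair of cells over 30000 UMIs, for named genes; bars are exact 95% intervals of the counts. Prss34 and Mcpt8, which chose the cells and are shown as a description, lie at 1.11 and 1.0, Ms4a2 at 0.04 and Ccl6 at -2.79.

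The 11 basophils with a Kit UMI were compared with the 110 without, again leaving out the pair of large cells. Of 2481 genes, 56 were higher (2.26%) and 244 lower (9.83%). The limit on UMIs counts both groups together, and the cells with Kit held 154977 UMIs in all against 754809 in the others. A gene can therefore pass on the cells without Kit alone, as Lilrb4a did with 0 against 128 UMIs. That favours lower calls here and in the list counts that follow, and its part in them was not tested. Of the 11 cytokine and chemokine genes 10 were lower and 0 higher, as were 11 and 0 of 15 immediate early genes. Genes of other cell types were lower too, with 9 of 11 neutrophil granule and S100 genes, 4 of 5 erythroid and 3 of 5 B lineage genes, and Ltf, Ngp, Hba-a1 and Hba-a2 among the 10 lowest of all. In the 9 cells with Kit and 92 without that held none of the signs of other cell types named above, 9 of 10 cytokine and chemokine genes and 3 of 5 neutrophil granule and S100 genes were lower. Of all 1966 genes compared between those 9 and 92 cells, 48 were higher and 211 lower. The proteases that chose the cells stood at -0.47 (Prss34) and -0.35 (Mcpt8), the other way from the cycling split. Ccl6 (-4.76), Ccl3 (-4.65) and Osm (-3.79), were lower, and Cd81 (2.50), Gzmb (2.43), Igfbp4 (2.04) and Myb (1.64), a transcription factor of progenitors, were higher. Of the 30 Gzmb UMIs in cells with Kit, 29 lay in the single day 2 cell named above, and without that cell Gzmb stood at -1.14. Of the 34 Cd81 UMIs, 24 lay in 1 cell. A single Kit UMI divides these cells by a sparse count and by depth, so the split is a range and not a cell type.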

How the data were processed

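Whole marrow and sorted cells were prepared with the 10x Genomics 3′ V3 chemistry. The deposited matrices hold UMI counts per gene and cell, which the authors made with Cell Ranger 3.1 against mm10 (per the submitters' notes, which also name Seurat 5.0), and 30934 of their 31053 gene identifiers matched GENCODE M21. Counts were read with Python 3.11.15, numpy 2.4.6, scipy 1.17.1, pandas 2.3.3 and scanpy 1.11.5, and drawn with matplotlib 3.10.9. UMIs were summed over the cells of a library and scaled to CPM. A log2 ratio compares CPM plus 10 CPM and was called at 1 unit for genes with at least 50 UMIs in both libraries together. Where both groups are small, the ratio can lie outside the interval of the raw counts, since the added 10 CPM pulls it to 0. Shares have Clopper-Pearson intervals, levels exact Poisson intervals and ratios exact conditional intervals, all at 95%, and the scripts were tested on simulated data. The members, the 24 gene lists (328 genes), the definition by surface mRNAs and the genes named were chosen with earlier results of these data known. Genes were named from these lists, from the 10 highest and 10 lowest ratios of each treated library over naive and of cells with Kit over those without, and from the 20 genes highest over other cells. Doublets were not removed in the reported values. As an alternative, the highest Scrublet scores were removed at 0.8% per 1000 cells, since the automatic threshold failed, which took out 404, 300 and 550 cells and 8, 1 and 1 of the basophils. Both treated comparisons share the naive library.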

Additional observations from a re-analysis of the deposited data

Results flagged for a closer look

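Only genes that stood higher on day 2 and lower on day 7, each by at least 1 log2 unit over naive basophils, met a rule for opposite directions, and the difference between the days was not tested. Cenpf, a kinetochore gene, had a ratio of 1.22 on day 2 and -1.72 on day 7, with 132 CPM in naive, 320 CPM in D2 CTX and 33.1 CPM in D7 CTX basophils, and without the pair of cells over 30000 UMIs the day 2 ratio was -0.34. Ighm, the immunoglobulin heavy chain mu gene, had 1.38 and -2.34, with 107, 295 and 13.2 CPM, and 1.65 on day 2 without that pair. At least 3 UMIs of the B cell genes Cd79a and Cd79b were found in 4, 5 and 1 basophils, and their part in the Ighm values was not tested.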

How the results depend on the processing

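No paired analysis was possible because each condition is 1 library. For shares and counts of genes, 149 alternative values lay near the reported value and 41 moved, and for single genes 1059 lay near, 289 moved and 18 turned sign. The naive share was 1.53% without lymphoid cells. The day 2 share was 0.359% at 10 UMIs of the proteases, 0.764% for cells thinned to 2000 UMIs, 0.777% without lymphoid cells, 1.11% by surface mRNAs and 0.833% by their stricter form. The day 2 log2 ratio was -0.00263 by surface mRNAs and -0.18 by the stricter form. The counts of genes that follow are given without the number compared, which grows as the limit on UMIs falls and can change with the cells kept. They are therefore not shares and cannot be set against each other directly. Genes higher and lower (day 2 over naive, day 7 over naive, day 7 over day 2) numbered 419 and 118, 101 and 218, 121 and 510 at a limit of 20 UMIs, and 876 and 218, 499 and 725, 418 and 1570 with no limit. With the B lineage level subtracted they numbered 689 and 367, 266 and 213, 314 and 550. With 10 UMIs of the proteases, 65 were higher on day 2, and 22 higher and 53 lower from day 2 to day 7. Without cells over 30000 UMIs the day 2 counts were 67 and 33 and the day 7 over day 2 counts 19 and 69. In cells not cycling they were 39 and 21 on day 2, 35 lower on day 7 and 47 lower from day 2 to day 7. Kit was found in 1.43% of naive basophils after thinning to 1000 UMIs, and as separate alternatives in 10% without thinning and in 0% with doublets removed. Without thinning, 58.6% of naive and 65% of day 7 cells were cycling. Camp over naive was 1.57 on day 2 and 3.74 on day 7 with doublets removed, 0.20 on day 7 by surface mRNAs, 0.0472 and 1.79 without cells rich in S100a8, and 1.40 on day 7 in cells not cycling. Cenpf on day 2 was -0.0389 by the mean of the cells, -0.36 at 10 UMIs and -0.34 without large cells, and on day 7 it was 0.92 in cells not cycling. Cd200r3 from day 2 to day 7 was -0.0465 in cells not cycling. With the B lineage level subtracted, S100a8 was at -14748 and -11228 CPM and Camp at -2468 and -2180 CPM on days 2 and 7, and Hbb-bs at -633, -490 and -7.80 CPM. The surface mRNA definitions, the settings without large cells or cells with signs of other cell types, those in cells not cycling and the splits within a library were chosen after the values had been seen. Beyond the settings' own construction, the cause was not tested. Counts of 20 to 70 cells a library limit every value, and pooling hides the spread between mice.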

Other observations

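Histone genes stood on both sides among the genes with the highest and lowest ratios over naive BM. Hist1h2ap was at 53.6, 403 and 19.9 CPM (2.70 on day 2, and 3.02 without the pair of large cells), and Hist1h2ac at 146, 22.5 and 172 CPM (-2.27 on day 2). The linker histone gene H1f0 stood at 293 CPM in naive, 45.1 CPM in D2 CTX and 159 CPM in D7 CTX basophils (log2 ratio -2.46 on day 2, and -2.07 without the pair of large cells), and Cdkn2d, an inhibitor of the cell cycle, at 204, 32.5 and 72.8 CPM (-2.33 on day 2, and -1.90 without the pair). Hist1h1b, a replication-linked linker histone gene, stood at 691, 228 and 106 CPM (-2.60 on day 7). Gm10076, which could not be given a role here, stood at 94.9, 914 and 106 CPM (3.14 on day 2, and 3.03 without the pair of large cells). Ramp1, a receptor activity-modifying protein gene, was at 124, 245 and 390 CPM (1.58 on day 7). Of the 7 genes for histamine and lipid mediators compared on day 2, and of the 3 apoptosis regulators, none was apart by 1 log2 unit in either direction, but without the pair Mcl1, which restrains cell death, stood at 1.0, with 1 of the 2 apoptosis regulators then compared higher. Of the 5 interferon-stimulated genes compared on day 2, Bst2 was higher (1.20), but 25 of its 41 day 2 UMIs lay in the pair of large cells, and without them it had too few UMIs to be compared, while Ly6e, called with the surface genes above, was then higher (1.10), as 1 of 4. Of 4 globin genes all were lower on both days, with most naive Hbb-bs UMIs in a single cell.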
